A study of Homo sapiens with 3 samples.

Results

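Keratin genes were examined on 3 oligonucleotide arrays of KYSE180, a human line of oesophageal squamous cell carcinoma. Members were all genes whose platform symbol is KRT followed by a number and an optional letter A to C, read from probe sets that carry only that symbol. This gave 47 keratins on 67 probe sets, of 18132 genes measured in the same way. The RefSeq gene table lists 55 genes of this form. The other 8 have no probe set of their own here and were not analysed, among them KRT6A, KRT6B, KRT16 and KRT17. KRT16 and KRT34 occur only on 2 probe sets that also name other genes.

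Each group was 1 array of total RNA. In the first group the cells carried a vector for HOTAIR, a long non-coding RNA of the HOXC locus, delivered with Polyfect. In the next group they received a mixture of Stealth siRNAs against HOTAIR, 100 pmol delivered with Lipofectamine2000. The last group is labelled only as control. The design text names a negative control siRNA, but the control sample's own labels do not say what it received. RNA was taken 48 h after transfection. Reagent and kind of nucleic acid differ between the arms, so their effects cannot be told apart from that of HOTAIR. The source name of the siRNA sample speaks of a HOTAIR cell line, while its title and cell line field give KYSE180, and KYSE180 was taken. HOTAIR has 0 probe sets in the platform annotation, so its own level was not analysed here.

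Keratins are the intermediate filament proteins of epithelial cells, and a filament always pairs a type I keratin with a type II keratin. In squamous epithelium the dividing basal layer makes KRT5 with KRT14 and also KRT15. Cells that leave it switch to suprabasal pairs, KRT1 with KRT10 in skin and KRT4 with KRT13 in oesophagus and mouth. KRT8 with KRT18, together with KRT7, KRT19 and KRT20, mark simple, single-layered and glandular epithelia, and carcinoma lines often make them beside the squamous keratins.

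Signals are log2 values from RMA, a method that normalizes arrays and summarises the probes of a probe set. Where a gene has several probe sets, that with the highest average signal was used, and the gene was kept where this average reached 5.28, the median of all probe sets. Of the 47 keratins 16 were kept, and the same rule kept 10917 of all genes. KRT83 (mean 5.32) and KRT40 (5.35) lay just inside the filter, and KRT7 (4.91) and KRT39 (4.80) just outside. Levels of different probe sets cannot be set against each other, so only values of 1 gene across arrays are compared. Since every group is 1 array, differences could not be set against replicate error and no p-values were computed. The spread between probe sets of the same gene, the only error that could be measured, had a pooled SD of 0.26 (log2) for vector minus siRNA, 0.44 for vector minus control and 0.45 for siRNA minus control over 8320 genes.

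The label was checked on 8 measured markers of 9 that are not keratins. DSG3, PKP1, TRIM29 and SOX2 are typical of squamous cells, while CDH1 and EPCAM mark epithelia in general, and the squamous factor TP63 was not analysed here. All 8 were above the filter, with signals of 9.19 to 12.58 on the vector array, 8.92 to 12.65 on the siRNA array and 9.54 to 12.37 on the control array. None of the 6 fibroblast, 3 leukocyte, 3 endothelial and 3 melanocyte markers measured was kept. The control array stood apart from the other arrays. Of the genes kept, 15.2% were at least 2-fold up in vector against control cells and 2.05% down, 14.9% and 1.85% in siRNA against control cells, and 1.73% and 1.85% in vector against siRNA cells. The median gene differed by -0.18 (log2) in vector minus control, -0.17 in siRNA minus control and 0.01 in vector minus siRNA. Differences from control are read against that shift.

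The basal pair KRT5 and KRT14 was lower in vector cells, the simple pair KRT8 and KRT18 was lower in siRNA cells, and suprabasal keratins followed no common direction. The plot of signals by array shows this by class. In bulk RNA, fewer cells that make a keratin and less of its RNA per cell cannot be told apart. At the 2-fold mark (1 on the log2 scale) few keratins differed. In vector against siRNA cells 0 of 16 were at least 2-fold higher, where the share of all genes kept was 1.73%, and 1 was lower, where it was 1.85%. In vector against control cells 0 were higher, against 15.2% of genes kept, and 1 lower, against 2.05%. In siRNA against control cells 0 were higher, against 14.9%, and 0 lower, against 1.85%. The lower genes were KRT1 in vector against siRNA and KRT14 in vector against control cells. At 1.5-fold, 3 of 16 were higher in vector against siRNA cells, against 4.74% of genes kept, and 3 lower, against 4.95%. In vector against control cells 1 was higher, against 22.9%, and 5 lower, against 19.4%. In siRNA against control cells 1 was higher, against 22.8%, and 2 lower, against 18%. KRT7, below the filter by its mean, was more than 2-fold higher in vector cells in both of their comparisons. It was the 1 keratin of all 47 so called there without the filter, where 1.37% of all genes measured were higher and 1.46% lower in vector against siRNA cells, 10.1% and 1.45% in vector against control cells, and 9.81% and 1.19% in siRNA against control cells.

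**Figure D1:**
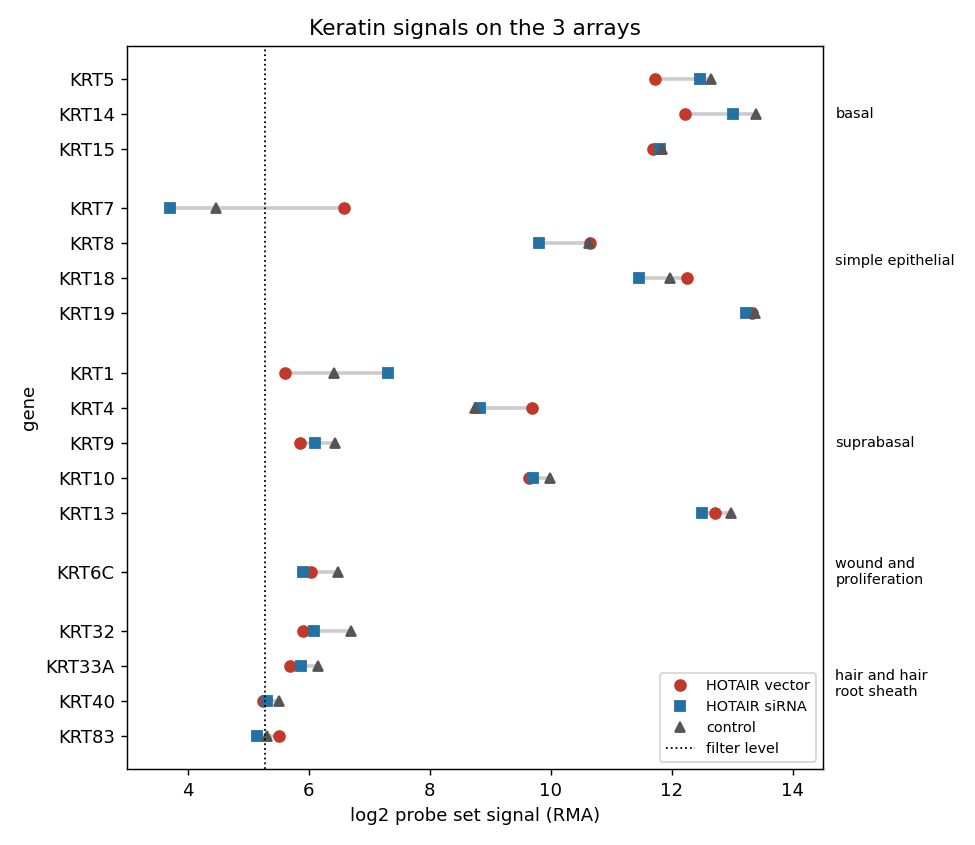
Log2 RMA signal (horizontal axis) of the 16 keratins above the filter and of KRT7, grouped by class, with 1 point per array and a grey bar spanning the 3 arrays. KRT5 and KRT14 have the vector array lowest, KRT8 and KRT18 have the siRNA array lowest, and KRT7 and KRT1 span the widest ranges, with the vector array at opposite ends.

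The basal pair had its lowest signals in vector cells. KRT5, the type II keratin of basal cells, had signals of 11.72 in vector, 12.47 in siRNA and 12.64 in control cells. KRT14, its type I partner, had 12.22 in vector, 13.01 in siRNA and 13.38 in control cells. For each gene the vector array lay below both others, with siRNA minus control at -0.17 for KRT5 and -0.37 for KRT14.

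In vector minus siRNA KRT5 differed by -0.75 and KRT14 by -0.79. In vector minus control the differences were -0.92 and -1.16, the last a 2.24-fold lower level of KRT14. KRT14 is measured by a single probe set whose name ends in _x_at, the platform's mark for probes that may bind similar transcripts, and KRT16 and KRT17 are its close relatives. Its difference was -0.98 after centring on the median gene, which ends the 2-fold call. The other probe set of KRT5 gave -0.67 in vector minus siRNA, -1.27 in vector minus control and -0.60 in siRNA minus control, so there the siRNA array lay near the middle.

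KRT15, a type I keratin of basal cells, had 11.69 in vector, 11.80 in siRNA and 11.84 in control cells. Its arrays were within 0.15 of each other. Over the 3 basal keratins the median difference was -0.75 in vector minus siRNA, -0.92 in vector minus control and -0.17 in siRNA minus control. That last median equals the shift of the median gene. Of the 10917 genes kept, 3.25% were at least as far below siRNA in vector cells as KRT5, and 3.01% at least as far as KRT14.

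All 5 simple keratins measured had their lowest signal on the siRNA array, which was lowest in 32.5% of all genes kept. The arrays spanned only 0.15 for KRT19 and 0.18 for KRT20. After centring on the median gene KRT19 was at 0.02 in siRNA minus control, so its order is not firm. KRT8, the type II keratin of simple epithelia, had signals of 10.65 in vector, 9.80 in siRNA and 10.63 in control cells. KRT18, its type I partner, had 12.25 in vector, 11.46 in siRNA and 11.96 in control cells. In these genes the siRNA array was lowest, and for KRT8 the vector and control arrays were within 0.02.

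In vector minus siRNA KRT8 differed by 0.85 and KRT18 by 0.80, and in siRNA minus control by -0.83 and -0.51. Of the genes kept, 2.30% were at least as far above siRNA in vector cells as KRT8, and 2.71% as KRT18. At least as far below control in siRNA cells were 5.49% for KRT8 and 24.0% for KRT18. After centring KRT18 was at -0.34 in siRNA minus control, smaller than the probe set SD of 0.45. KRT8 has 8 probe sets, more than any other keratin here. They gave a mean of 0.91 ± 0.08 (SD over probe sets) in vector minus siRNA, -0.13 ± 0.09 in vector minus control and -1.04 ± 0.13 in siRNA minus control. With that mean, KRT8 passed 2-fold in siRNA against control cells. The probe sets of KRT18 gave 0.80 and 0.78 in vector minus siRNA. All probe sets of KRT8 and KRT18 end in _x_at, and both genes have many processed pseudogenes, so shared binding cannot be told apart from the genes themselves.

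KRT19, a type I keratin made without a fixed partner in many epithelia, had 13.32 in vector, 13.22 in siRNA and 13.37 in control cells. Its arrays spanned 0.15. These signals, like those of KRT14, lie near the highest of any probe set, which was 14.19 on the vector, 14.06 on the siRNA and 14.19 on the control array.

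KRT7, a type II keratin of glandular and transitional epithelia, had 6.58 in vector, 3.70 in siRNA and 4.46 in control cells. It passed the filter level on the vector array only. Its siRNA signal is close to that array's lower quartile (3.62), so how large the fold is stays uncertain. On its 1 probe set KRT7 was higher by 2.88 in vector minus siRNA, which is 7.34-fold, and by 2.12 in vector minus control, which is 4.34-fold. Among the 18132 genes measured without the filter, 0.121% were at least as much higher in vector than in siRNA cells, and 3.04% at least as much higher in vector than in control cells. The difference from siRNA cells was 2.79 to 2.92 and that from control cells 2.11 to 2.42 after repeated quantile normalization, cyclic loess or centring. The alternatives on the choice of probe sets cannot alter a gene with 1 probe set. KRT20, the intestinal simple keratin, was dim on every array, with 4.40 in vector, 4.29 in siRNA and 4.46 in control cells.

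The median of the 3 simple keratins above the filter was 0.80 in vector minus siRNA, 0.02 in vector minus control and -0.51 in siRNA minus control. Repeated quantile normalization turned the vector minus control median to -0.05, and so did the mean over probe sets, so it has no direction. In the plot of differences by class, simple keratins lie right of 0 and basal keratins left of 0 in vector minus siRNA.

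**Figure D2:**
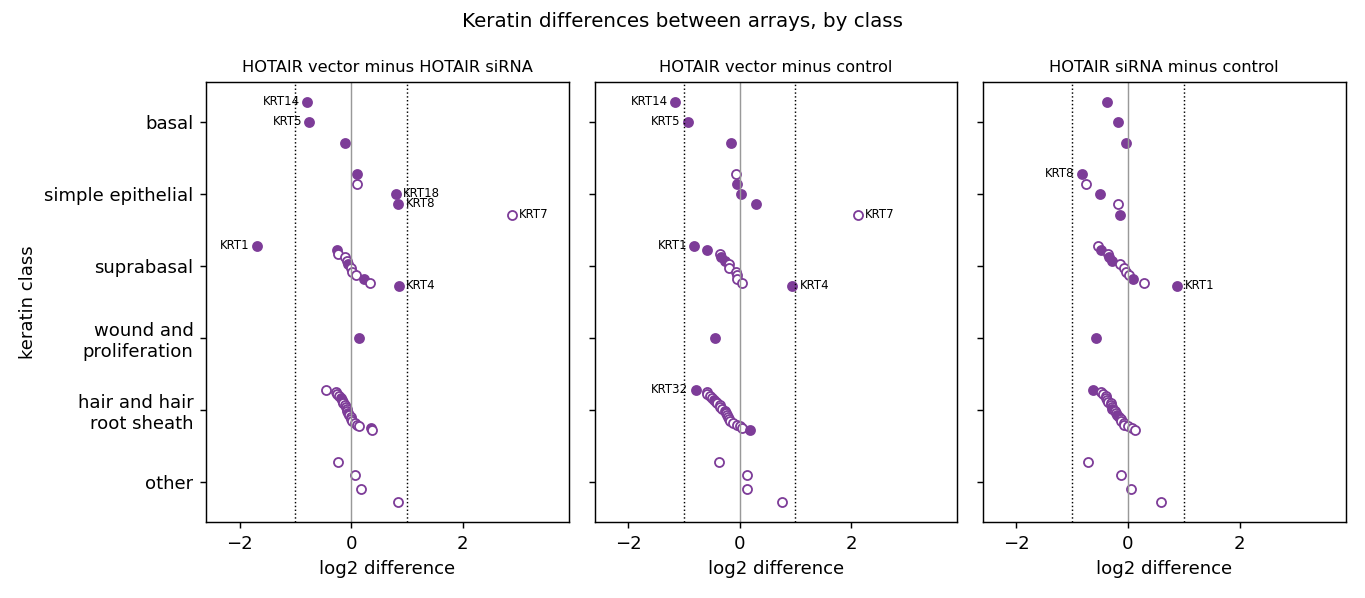
Log2 difference (horizontal axis) of all 47 keratins by class in the 3 comparisons, filled where the gene is above the filter and open where it is below, with dotted lines at 2-fold. In vector minus siRNA the 3 basal keratins lie between -0.79 and -0.11 and the 5 simple keratins between 0.10 and 2.88.

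The balance of the simple pair against the basal pair does not depend on how arrays are centred. It was chosen after the values were seen and is given as a description. The mean difference of KRT8 and KRT18 minus that of KRT5 and KRT14 was 1.59 (log2) in vector minus siRNA, 1.20 in vector minus control and -0.39 in siRNA minus control. The balance of the vector array was thus shifted towards the simple pair against either other array. Against control the basal pair made up most of this, with KRT5 at -0.92 and KRT14 at -1.16. KRT8 was at 0.02 there and KRT18 at 0.29. All probe sets of KRT8, KRT18 and KRT14 end in _x_at, so the balance could not be computed without such probe sets.

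Suprabasal keratins went apart from each other, and the oesophageal and skin pairs differed. KRT4, the type II keratin of suprabasal oesophageal cells, had 9.68 in vector, 8.83 in siRNA and 8.74 in control cells. The vector array was highest, and the siRNA and control arrays were within 0.09. KRT4 was higher by 0.86 in vector minus siRNA and 0.94 in vector minus control, and its other probe set gave 1.04 and 1.08. With the mean over probe sets KRT4 was past 2-fold against control, at 1.01. Such differences from control were common. On the probe set in use, 16.0% of genes kept were at least as far above control in vector cells as KRT4. Against siRNA cells it was 2.24%.

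KRT13, the type I partner of KRT4, had 12.71 in vector, 12.49 in siRNA and 12.98 in control cells. Its differences were 0.22 in vector minus siRNA, -0.27 in vector minus control and -0.49 in siRNA minus control. Its 3 probe sets gave 0.25 ± 0.03 (SD over probe sets) in vector minus siRNA. Against control they were less alike. Those not in use gave -0.59 and -0.58 in vector minus control, and -0.86 and -0.83 in siRNA minus control. On the probe sets in use, the difference of KRT4 was above that of its partner by 0.64 in vector minus siRNA and by 1.21 in vector minus control.

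KRT1, the type II keratin of suprabasal epidermis, had 5.61 in vector, 7.31 in siRNA and 6.42 in control cells. It was lower by 3.24-fold in vector than in siRNA cells (log2 -1.70), the widest range over the arrays of any keratin above the filter. The control array lay between the arms, at -0.81 in vector minus control and 0.89 in siRNA minus control. KRT1 was past 2-fold in siRNA minus control after cyclic loess (1.18) and after centring (1.05). It rests on 1 probe set. Of the genes kept, 0.504% were at least as far below siRNA in vector cells, and 16.9% at least as far above control in siRNA cells.

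KRT10, the type I partner of KRT1, had 9.64 in vector, 9.70 in siRNA and 9.98 in control cells. It differed by -0.05 in vector minus siRNA, where KRT1 was at -1.70. KRT9, the type I keratin of palm and sole epidermis, had 5.85 in vector, 6.10 in siRNA and 6.44 in control cells. Its probe sets disagreed against control, at -0.59 and -0.04 in vector minus control.

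Suprabasal keratins were set against basal and simple keratins by their medians. The suprabasal median was -0.05 in vector minus siRNA over 5 genes, -0.33 in vector minus control and -0.28 in siRNA minus control. Subtracting the median of the 6 basal and simple keratins left -0.05, -0.23 and -0.01 in the same order of comparisons. Over the alternatives this value ran between -0.14 and 0.23 in vector minus siRNA, -0.36 and -0.13 in vector minus control, and -0.13 and 0.24 in siRNA minus control. It therefore has no fixed sign in vector minus siRNA and siRNA minus control. These small values hide spread, since basal and simple keratins lay on opposite sides of 0 in vector minus siRNA and KRT1 and KRT4 did so too.

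Partners are the natural unit of a filament, and 4 of 6 listed pairs could be read. KRT5 and KRT14 differed from each other by 0.04 in vector minus siRNA, and KRT8 and KRT18 by 0.05, so the genes of each pair differed by nearly the same amount there. Against control the partners were further apart. KRT5 minus KRT14 was 0.24 in vector minus control and 0.20 in siRNA minus control, and KRT8 minus KRT18 was -0.27 and -0.32. In vector minus siRNA the suprabasal pairs differed within themselves by 0.64 (KRT4 minus KRT13) and -1.64 (KRT1 minus KRT10). The pairs of KRT6A with KRT16 and KRT6B with KRT17 were not analysed here.

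Promoter sequences are shown for KRT4, highest in vector cells, KRT5, lowest there, and KRT10, close on all arrays. These genes were chosen after their values were seen, and none was 2-fold apart on the probe set in use. No window was available for KRT1, KRT7, KRT14 and KRT18, and that of KRT8 is not shown. Each is the 250 bases before the RefSeq start on build GRCh38.p14, on the minus strand, 5′ to 3′. They lie at chr12:52814117-52814366 for KRT4, chr12:52520395-52520644 for KRT5 and chr17:40822615-40822864 for KRT10. Capitals mark matches to TATAAA, the TATA box, and to CACCC, the core of sites bound by Krüppel-like factors, on either strand.
KRT4: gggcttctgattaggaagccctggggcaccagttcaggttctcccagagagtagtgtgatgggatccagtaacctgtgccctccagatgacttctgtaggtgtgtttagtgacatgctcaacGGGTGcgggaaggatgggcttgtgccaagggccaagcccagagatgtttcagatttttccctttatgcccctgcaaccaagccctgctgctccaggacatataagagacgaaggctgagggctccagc
KRT5: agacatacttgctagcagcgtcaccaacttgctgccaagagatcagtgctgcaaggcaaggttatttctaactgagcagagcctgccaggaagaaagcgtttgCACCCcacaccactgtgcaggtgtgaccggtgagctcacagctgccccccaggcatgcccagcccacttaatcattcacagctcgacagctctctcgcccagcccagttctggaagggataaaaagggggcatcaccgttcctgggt
KRT10: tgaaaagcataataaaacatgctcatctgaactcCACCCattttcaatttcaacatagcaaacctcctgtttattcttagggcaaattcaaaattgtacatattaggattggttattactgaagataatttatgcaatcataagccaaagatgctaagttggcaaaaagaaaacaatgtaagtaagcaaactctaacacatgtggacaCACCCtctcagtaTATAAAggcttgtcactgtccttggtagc
A TATAAA match begins 29 bases before the start in KRT10, and these letters are in neither of the KRT4 and KRT5 windows. CACCC occurs once in KRT4, on the opposite strand, once in KRT5 and at 2 places in KRT10, and no capital stretches overlap. Of 34 keratin genes with a window in the table, 21 hold TATAAA, against 10.7% of all 35116 windows of this length. For each motif a keratin gene counts where any of its windows holds the letters, while the shares are of single windows. The measures are therefore unlike, and a gene with several windows is favoured. CACCC is in 28 of the 34 and in 54.7% of all windows. The SP1 motif GGGCGG is in 4 of 34 and in 42.6% of all, and the AP-1 motif TGANTCA in 0 of 34 and in 6.57% of all, both searched on both strands. These are matches of letters and not sites shown to be bound.

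Most wound-response keratins had no probe set of their own, and few hair keratins were above the filter. KRT6C, a type II keratin of the wound-response group, had 6.04 in vector, 5.90 in siRNA and 6.48 in control cells, so the control array was highest. Its sequence is close to that of KRT6A and KRT6B, so shared binding of their transcripts cannot be told apart. It was the only measured member of its 5-gene class. Among 22 hair and hair root sheath keratins 4 were above the filter. KRT32, a type I hair keratin, had 5.91 in vector, 6.08 in siRNA and 6.70 in control cells. KRT33A, a type I hair keratin, had 5.69 in vector, 5.87 in siRNA and 6.15 in control cells. In both genes the control array was highest.

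KRT40, a type I hair keratin, had 5.24 in vector, 5.30 in siRNA and 5.50 in control cells, and KRT83, a type II hair keratin, had 5.50 in vector, 5.15 in siRNA and 5.31 in control cells. In vector minus siRNA these 4 lay between -0.18 and 0.35. Of these 4 hair keratins KRT83 had the vector array highest and the others the control array. That order is not firm for KRT40 and KRT33A. After cyclic loess KRT40 was at 0.05 in vector minus control and 0.09 in siRNA minus control. KRT33A was then at 0.02 in siRNA minus control.

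The 31 keratins below the filter were dim. On the vector array 15 of all 47 keratins were below the lower quartile of probe sets, on the siRNA array 15 and on the control array 14. Apart from KRT7 no keratin below the filter was 2-fold apart in any comparison. KRT80, a type II keratin of many epithelia, had 4.48 in vector, 3.64 in siRNA and 4.36 in control cells, a difference of 0.85 in vector minus siRNA. The order of its arrays was that of KRT7 and KRT18. KRT23, a type I keratin, had 3.24 in vector, 3.06 in siRNA and 2.48 in control cells, all below the lower quartiles of their arrays. The 7 dim suprabasal keratins, KRT2, KRT3, KRT12, KRT24, KRT76, KRT77 and KRT78, had signals of 2.60 to 4.64 and lay between -0.24 and 0.34 in vector minus siRNA. The 18 dim hair keratins had signals of 2.19 to 5.04 and lay between -0.46 and 0.36.

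Repeat probe sets were available for 9 of the 16 keratins above the filter. The plot of probe sets shows that those of KRT5, KRT8, KRT18, KRT4 and KRT13 lay on the same side of 0 in vector minus siRNA. The lowest and highest of the 8 for KRT8 were 0.82 and 1.05. For KRT6C they were -0.02 and 0.14, so it has no direction there. Probe sets of 1 gene share the RNA and the array, so their spread leaves out variation between cultures.

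**Figure D3:**
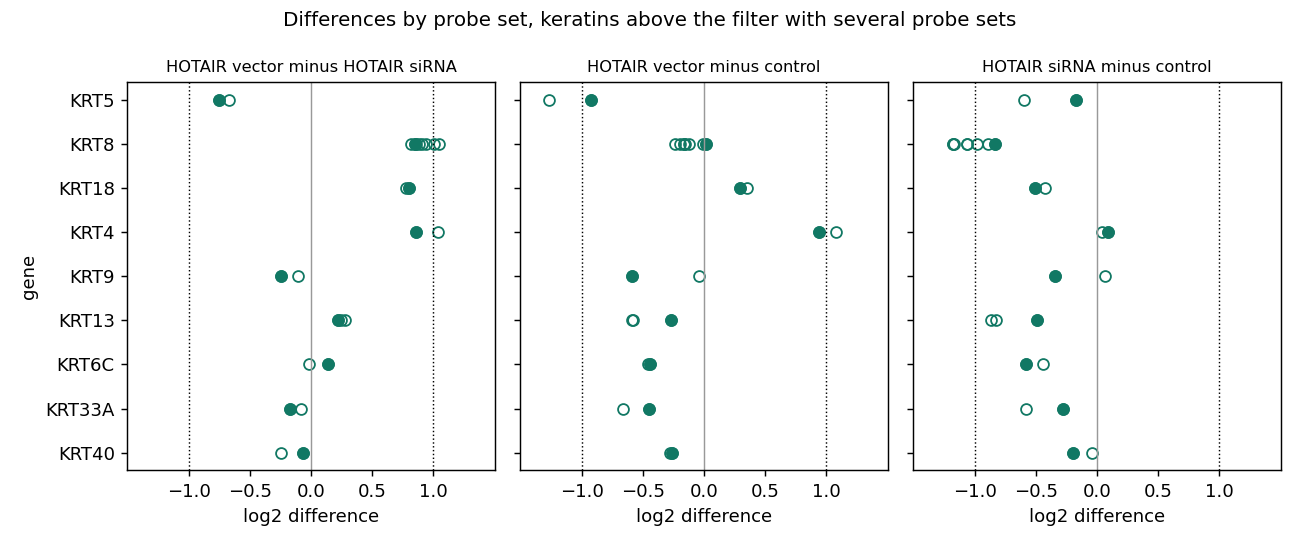
Log2 difference (horizontal axis) for each probe set of the 9 keratins above the filter with several probe sets, filled for the probe set in use and open for the others, with dotted lines at 2-fold. The 8 probe sets of KRT8 lie between 0.82 and 1.05 in vector minus siRNA and between -1.18 and -0.83 in siRNA minus control.

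Keratin genes sit in clusters of neighbours, with type II genes and KRT18 on chromosome 12 and the other type I genes on chromosome 17. The plot along the clusters places the differences in gene order from the RefSeq table. On chromosome 12 the 7 keratins above the filter ranged from -1.70 to 0.86 in vector minus siRNA. On chromosome 17 the 9 above the filter ranged from -0.79 to 0.22. KRT80 and KRT7 are neighbours at one end of the chromosome 12 cluster and KRT8 and KRT18 at the other, and all 4 were higher in vector than in siRNA cells, by 0.80 to 2.88. KRT4 (0.86), which lies inside the cluster, had as large a difference as KRT8 (0.85), and KRT80 is below the filter level on every array. KRT5 and KRT1, both lower in vector cells, also lie inside the cluster, and the measured genes next to these lay between -0.26 and 0.14.

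**Figure D4:**
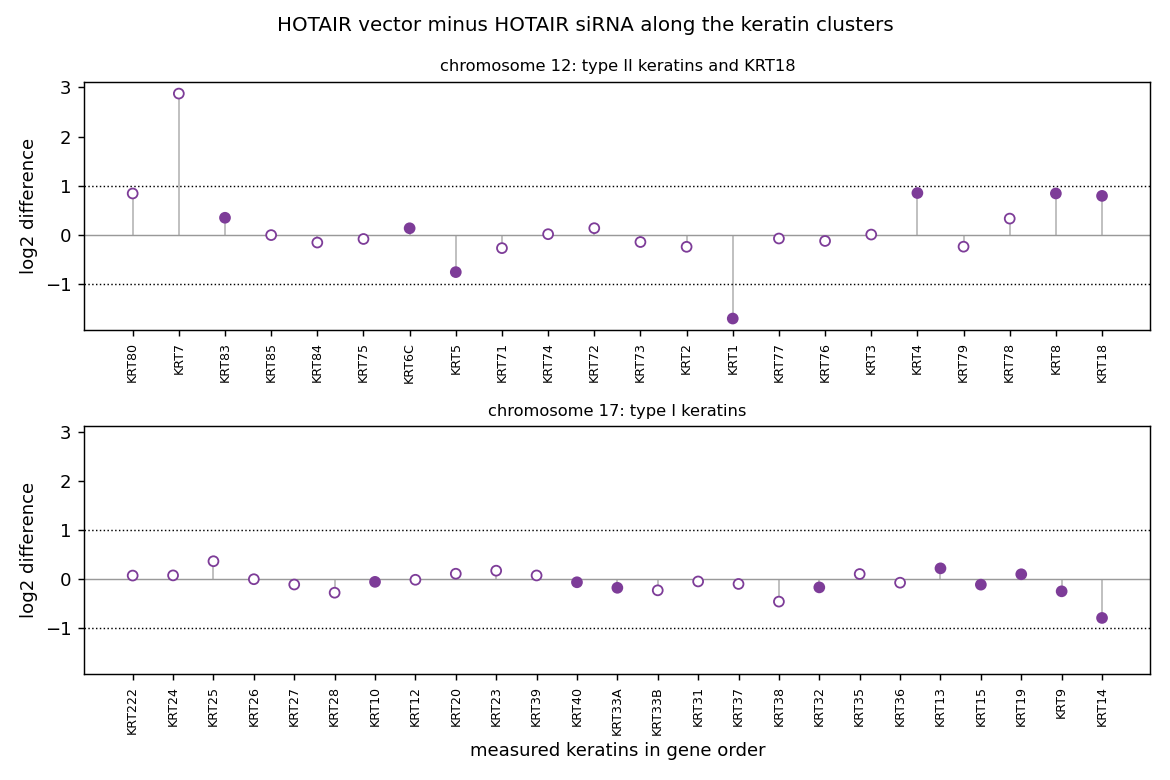
Log2 difference of HOTAIR vector minus HOTAIR siRNA (vertical axis) for measured keratins in gene order (horizontal axis) on chromosome 12 and chromosome 17, filled where the gene is above the filter, with dotted lines at 2-fold. KRT7 at 2.88 and KRT1 at -1.70 stand past the lines on chromosome 12, and KRT14 at -0.79 is the lowest on chromosome 17.

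Across the 16 keratins above the filter the control array was highest in 11, the vector array in 4 and the siRNA array in 1. The control array was also highest in 53.5% of all genes kept. The vector array was lowest in 9 keratins, the siRNA array in 6 and the control array in 1, while in all genes kept the shares were 32.0%, 32.5% and 35.5% in that order. Relative to control, 12 of 16 keratins were below 0 in vector and 14 of 16 in siRNA cells. Most genes kept were below 0 too. Only 40.3% were at 0.009 or higher in vector minus control, and 40.9% in siRNA minus control. After centring on the median gene, which puts as many genes below 0 as above, 10 and 11 keratins were below 0. The keratin median was -0.06 in vector minus siRNA, -0.30 in vector minus control and -0.28 in siRNA minus control. At 1.5-fold on each side of control, 1 keratin of 16 had the arms on opposite sides, KRT1, and so had 56 of the 10917 genes kept. KRT7 did so too among the keratins below the filter. The comparisons with control share the control array, so their values are not independent.

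Genes that anchor and arrange keratin filaments were listed as companions, 17 in number with 16 above the filter. In vector against siRNA cells 0 were at least 2-fold higher and 1 lower, against 1.73% and 1.85% of genes kept. The lower gene was EPPK1, a plakin that binds keratin bundles. EPPK1 had 6.38 in vector, 7.46 in siRNA and 7.41 in control cells, so the vector array was low. In vector against control cells 1 was higher and 1 lower, against 15.2% and 2.05% of genes kept, and in siRNA against control cells 1 and 1, against 14.9% and 1.85%. The higher gene was DST (1.32 and 1.68), a plakin whose epithelial form ties keratin to hemidesmosomes. The lower genes were EPPK1 in vector (-1.04) and PKP3, a desmosomal plaque protein, in siRNA cells (-1.23). PLEC, the plectin linker of keratin to hemidesmosomes, had 8.28 in vector, 8.50 in siRNA and 9.20 in control cells. The list median was 0.23 in vector minus siRNA, -0.35 in vector minus control and -0.48 in siRNA minus control.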

How the data were processed

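Biotin-labelled targets were made from total RNA for oligonucleotide arrays, per the labels' protocols. Per the submitters' processing notes the authors used RMA, and the deposited table holds log2 signals per probe set. The log2 scale was read from their range, and the sources used here give neither the version nor the settings of RMA. The table held 49293 probe sets, of which the platform annotation names 1 gene for 44988 and several genes for 1832. It does not list 2473, which are unnamed here.

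A gene was its single-symbol probe set with the highest mean, kept at or above the median of probe set means. All 47 keratin symbols were found in the RefSeq gene table (GRCh38.p14), which served for names and gene order, and RefSeq promoter windows came from the same build. The samples were grouped by their labels. Log2 differences were counted at 2-fold over all genes kept. No test was possible with 1 array per group, and the number of arrays limits the precision. Every keratin above the filter is named, and those below it where an array passes the filter level or the class is basal, simple or suprabasal. KRT23, KRT39, KRT80, the promoters shown and the balance of simple against basal pairs were chosen after the values were seen. Companion genes are named past 2-fold, with PLEC added later. The members, classes and lists were chosen with earlier results of these data known. The counting steps were tested on simulated data.

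Alternatives were thresholds of 1.5-fold and 3-fold, no filter, a filter at the 75th percentile, the mean over probe sets, no probe sets ending in _x_at or _s_at, repeated quantile normalization, cyclic loess (span 0.4, 3 cycles) and centred differences. Python 3.11.15, numpy 2.4.6, pandas 2.3.3, matplotlib 3.10.9, R 4.3.3 and limma 3.58.1 were used.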

Additional observations from a re-analysis of the deposited data

How the results depend on the processing

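No paired analysis was possible because each group has 1 array. At 1.5-fold, 3 keratins were higher and 3 lower in vector against siRNA cells, 1 and 5 in vector against control, and 1 and 2 in siRNA against control. At 3-fold, 0 keratins were lower in vector against control cells, where the share of genes kept was 0.293%. KRT1 was still lower in vector against siRNA cells, where the share was 0.595%. Without the filter KRT7 made 1 higher in vector against siRNA and 1 higher in vector against control cells. The filter at the 75th percentile left 9 keratins and dropped KRT1, so 0 were lower in vector against siRNA cells and the suprabasal minus basal and simple value became 0.23. The mean over probe sets left 14 keratins, with 1 higher and 2 lower in vector against control (12.8% and 1.59% of genes kept) and 1 lower in siRNA against control cells (1.45%). Without probe sets ending in _x_at or _s_at, 11 keratins were left, KRT8, KRT14 and KRT18 had no value, 0 keratins were lower in vector against control cells (2.08%), and the basal and simple medians in vector minus siRNA were -0.43 and 0.10. Cyclic loess gave 1 higher in vector against control (17.4%) and 1 higher in siRNA against control cells (18.2%). Centring gave 1 higher and 0 lower in vector against control (18.1% and 0.96%) and 1 higher in siRNA against control cells (17.9%). KRT4, KRT1 and KRT14, the genes behind these last changes, lie near 2-fold, at 0.94, 0.89 and -1.16 as reported. The simple minus basal pair value was 1.57 to 1.60 in vector minus siRNA with the mean over probe sets, repeated quantile normalization or cyclic loess. Centring and the filters cannot alter it, and without probe sets ending in _x_at or _s_at it has no value. Of 246 single keratin values under alternatives, 0 moved by more than the pooled probe set SD of their comparison. Many could not do so. A gene with 1 probe set does not move with the choice of probe sets. Centring moves every gene by less than that SD. The count therefore says little on how firm the values are.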

Other observations

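Other intermediate filament genes were also read, 15 in number with 8 above the filter. In vector against siRNA cells 0 were at least 2-fold higher and 1 lower, against 1.73% and 1.85% of genes kept. In vector against control cells it was again 0 and 1, against 15.2% and 2.05%. The lower gene was NEFL in both, which encodes the light neurofilament subunit. NEFL had signals of 7.31 in vector, 8.45 in siRNA and 9.25 in control cells, so the control array was highest and the vector array lowest, and in vector minus control it was at -1.94. The median of the 8 genes was -0.32 in vector minus siRNA and -0.66 in vector minus control. VIM, the mesenchymal intermediate filament vimentin, was below the filter and differed by -0.38 in vector minus siRNA and -0.27 in vector minus control. The nuclear lamina gene LMNA had 10.38 in vector, 10.12 in siRNA and 10.99 in control cells. VIM and LMNA were singled out after their values were seen.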
